A study of Mus musculus with 36 samples.

Results

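The 10 genes described here are genes of the oxidative stress response, namely the gene of the transcription factor NRF2 and antioxidant genes. They were chosen by name as 10 of the 43472 rows of a gene count table: Nfe2l2, Nqo1, Hmox1, Gclm, Gclc, Txnrd1, Srxn1, Slc7a11, Sod2 and G6pdx. All 10 had a row and all 10 passed the filter on low counts in every fit. Their expression was read by 3′ mRNA sequencing in 36 libraries of enteric glial cells (EGCs), the glia of the gut wall, grown as neurospheres from the intestine of wild-type C57BL/6J mouse embryos and then differentiated in culture. EGCs were left unstimulated, or received medium conditioned by dissociated healthy colon (H-CM) or by dissociated orthotopic MC38 colon tumors (TME-CM), over 6 h, over 12 h or over 24 h, with 4 libraries in each of these 9 groups. The comparisons ask which antioxidant genes of EGCs differ between medium of a tumor and medium of healthy tissue, and between each medium and none. Both media carry whatever living and dying cells of the tissue released, and no group tested a single factor from them. The labels do not say which libraries come from separate cultures or litters, so the p-values measure the spread between these libraries, which may be partly technical.

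NRF2, encoded by Nfe2l2, is kept low in resting cells because KEAP1 hands it to a ubiquitin ligase. Oxidants and electrophiles modify KEAP1, NRF2 then escapes breakdown, enters the nucleus with a small MAF protein and binds antioxidant response elements (ARE) in its target genes, so that its activity is set mostly at the protein level and not by its mRNA. Its targets refill glutathione and thioredoxin, detoxify quinones and break down heme. Sod2, the manganese superoxide dismutase of mitochondria, belongs to the same defense but is also a classical target of NF-κB downstream of inflammatory cytokines.

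Promoter windows are shown for the members that passed a test below and had an entry among RefSeq promoters, because their letters show which of these genes hold an ARE or an NF-κB sequence close to the start site. The windows run from 250 bases before to 50 after the annotated start (build GRCm38.p6). Capitals mark matches to the ARE core TGACNNNGC or to the NF-κB consensus on either strand. Of the 10 members, 8 were in the promoter table, and Hmox1 and Gclc were not.
Nfe2l2, chr2:75704614-75704913, minus strand: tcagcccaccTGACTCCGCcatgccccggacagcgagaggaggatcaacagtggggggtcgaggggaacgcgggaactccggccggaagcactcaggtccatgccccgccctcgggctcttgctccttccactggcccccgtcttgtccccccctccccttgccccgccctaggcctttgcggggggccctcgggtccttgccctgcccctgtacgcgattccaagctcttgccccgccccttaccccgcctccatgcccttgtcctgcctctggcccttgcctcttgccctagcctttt
Gclm, chr3:122245307-122245606, plus strand: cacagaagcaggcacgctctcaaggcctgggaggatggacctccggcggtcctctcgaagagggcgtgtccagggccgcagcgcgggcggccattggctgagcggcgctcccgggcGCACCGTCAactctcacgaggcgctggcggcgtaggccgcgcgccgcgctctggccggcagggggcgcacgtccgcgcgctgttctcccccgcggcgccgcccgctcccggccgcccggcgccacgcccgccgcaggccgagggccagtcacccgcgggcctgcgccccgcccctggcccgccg
Slc7a11, chr3:50443564-50443863, minus strand: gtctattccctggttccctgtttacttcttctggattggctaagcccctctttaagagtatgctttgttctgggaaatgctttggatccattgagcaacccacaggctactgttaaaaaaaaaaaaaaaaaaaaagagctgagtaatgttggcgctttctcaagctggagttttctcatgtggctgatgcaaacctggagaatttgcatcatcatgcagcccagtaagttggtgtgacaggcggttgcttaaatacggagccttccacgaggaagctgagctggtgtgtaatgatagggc
Nqo1, chr8:107403156-107403455, minus strand: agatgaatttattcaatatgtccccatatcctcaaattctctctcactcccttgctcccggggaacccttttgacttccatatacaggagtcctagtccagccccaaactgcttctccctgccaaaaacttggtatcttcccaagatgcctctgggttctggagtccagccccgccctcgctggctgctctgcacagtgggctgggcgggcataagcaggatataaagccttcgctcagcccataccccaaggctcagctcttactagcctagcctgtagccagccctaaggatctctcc
Sod2, chr17:13007589-13007888, plus strand: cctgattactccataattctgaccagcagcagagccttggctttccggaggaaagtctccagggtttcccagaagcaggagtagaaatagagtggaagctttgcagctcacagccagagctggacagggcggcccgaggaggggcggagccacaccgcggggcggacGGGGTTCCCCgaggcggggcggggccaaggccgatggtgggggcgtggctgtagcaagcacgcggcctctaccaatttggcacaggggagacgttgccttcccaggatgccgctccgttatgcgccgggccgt

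The Sod2 window held the one NF-κB match among the members, GGGGTTCCCC at position -83 from the start site, which reads as a match on both strands. ARE core letters stood at -240 in Nfe2l2 (TGACTCCGC), at -134 in Gclm (TGACGGTGC, minus strand of the window), at -92 in 1 of the 3 windows of Txnrd1 (TGACAAAGC), at -57 in G6pdx (TGACTGAGC) and at 29 bases after the start in Srxn1 (TGACCTAGC), the last 3 also read on the minus strand of the window. The Srxn1 window also held 2 matches to the AP-1 site TGANTCA, at -102 and -45, and the Nqo1 and Slc7a11 windows held none of the 3 motifs. Over all 32851 windows of 27025 genes, 12.4% held the ARE core, 7.81% the AP-1 site and 4.51% the NF-κB consensus. A match is a description of letters, no match covers this window alone, and binding was not measured.

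Library totals ran from 13518 to 5244763 counts at 6 h (median 1526580), from 2005239 to 5961933 at 12 h and from 1608018 to 7552509 at 24 h, and the dispersion shared by all genes was 0.572, 0.122 and 0.0455 in the same order. H-CM replicate 4 of 6 h stood apart with its total of 13518, where 1 count is worth 36.8 CPM (CPM is a gene's share of its library's counts, with library sizes scaled by TMM, and is the unit of all levels below), so values of 6 h are the least certain. The glial markers Sox10 and S100b were detected in the libraries of 24 h, with means of 65.8 and 48.4 CPM in TME-CM EGCs, and Gfap was low at 4.09 CPM. Of 9 enteric glial markers tested, 0 passed at 12 h or 24 h between TME-CM and H-CM by edgeR's adjusted p, and the summed level of the 10 markers at 24 h was 243 to 321 CPM in TME-CM and 270 to 294 CPM in H-CM EGCs. Smooth muscle markers were also present and moved with the media: of 7 tested, 4 were lower in TME-CM than in H-CM EGCs at 24 h, with summed levels of 1702 to 2468 CPM against 3232 to 3957 CPM, and 6944 to 7974 CPM in unstimulated EGCs. Of 6 fibroblast markers, 4 were higher in TME-CM than in H-CM at 24 h (6328 to 8027 CPM against 5035 to 5702 CPM). Unstimulated EGCs, at 6083 to 7694 CPM, overlapped TME-CM, with 2 markers higher and 1 lower in TME-CM against them. Of 7 macrophage markers tested 0 passed, and their summed level overlapped at 24 h (64.6 to 338 CPM in TME-CM, 73.3 to 317 CPM in H-CM). S100a8 was the 1 of 2 neutrophil markers tested that was higher in TME-CM at 24 h, with Ly6g at 0 in every library of that time. The part of these cells in the results below was not tested, and in bulk RNA fewer cells of a type and less RNA per cell cannot be told apart.

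Of the members called in TME-CM at 12 h or 24 h, Sod2 had the highest fold over H-CM and over unstimulated EGCs, and a small number of others moved in different directions. Against H-CM, Sod2 was over 5 times higher at 24 h, Slc7a11 joined it at 12 h, and Nqo1 fell at 24 h, while the regulator Nfe2l2, the glutathione synthesis genes Gclc and Gclm, and Txnrd1, Srxn1, Hmox1 and G6pdx did not pass the test. Between TME-CM and H-CM at 24 h, edgeR's quasi-likelihood test (Benjamini-Hochberg over all genes) called 2 of 10 members, 1 in each direction, beside 5.4% of the 12713 genes tested. At 12 h it called 2 of 10, beside 1.89% of 12156 genes, and both were higher, a direction taken by 1.22% of genes. At 6 h it called 0 of 10, beside 0.0972% of 9256 genes, with 3 members at an unadjusted p under 0.05 and 1, Sod2, called by DESeq2. The one model of all 36 libraries called 3 members at 6 h, Sod2 (adjusted p = 0.000271), Hmox1 (0.0216) and Nfe2l2 (0.0313), all higher, beside 899 genes. That model gives each gene a single spread over all time points, although the dispersion was 0.572 at 6 h and 0.0455 at 24 h. The fit of 6 h alone had adjusted p of 0.152, 0.667 and 0.804 for these members (edgeR) and called 9 genes, so these calls are uncertain. The median log2 fold change of the 10 members was 0.08, -0.14 and 0.84 at 24 h, 12 h and 6 h, against 0.00, 0.00 and 0.13 over all genes. The log2 fold changes of the members ran in both directions at 12 h and 24 h.

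**Figure D1:**
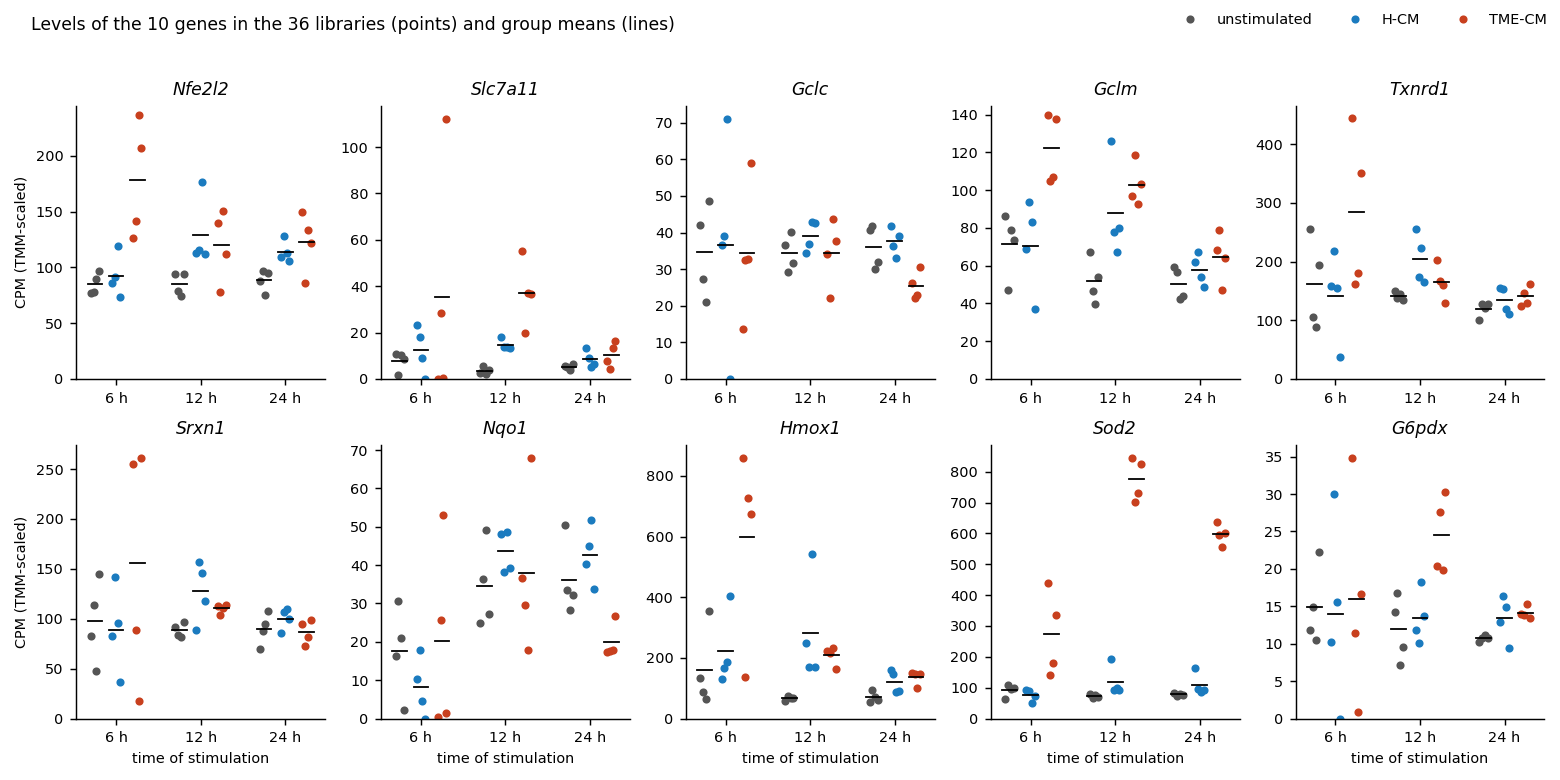
Level of each member in CPM on TMM-scaled library sizes (each panel with its own axis from 0), with 1 point for each of the 36 libraries and a line at the mean of each group of 4. The Sod2 points of TME-CM lie at 556 to 846 CPM at 12 h and 24 h, and the Nqo1 points of TME-CM at 24 h lie below those of both other groups.

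Nfe2l2 mRNA was detected in all 36 libraries. In unstimulated EGCs it lay between 74.1 and 93.9 CPM at 12 h (mean 85.2 ± 10.1, SD, n = 4) and between 75.3 and 96.9 CPM at 24 h (88.6 ± 9.73). H-CM EGCs had 112 to 176 CPM at 12 h and 106 to 128 CPM at 24 h, and TME-CM EGCs 78.0 to 151 CPM and 85.5 to 149 CPM. The TME-CM and H-CM libraries thus overlapped at both times, with log2 fold changes of -0.10 at 12 h (95% interval -0.55 to 0.34, adjusted p = 0.92) and 0.10 at 24 h (-0.20 to 0.41, adjusted p = 0.82, edgeR). Against unstimulated EGCs, Nfe2l2 was 1.39-fold higher in TME-CM at 24 h (log2 fold change 0.47, SE 0.15, adjusted p = 0.046, edgeR). This call was close to the threshold: it was lost with the replicate block (adjusted p = 0.0871), with only the groups compared (0.106), in the one model of all 36 libraries (0.839) and when any 1 of 7 of the 8 libraries was left out, up to 0.204 without TME-CM replicate 1. At 6 h the 4 TME-CM libraries, at 127 to 237 CPM, all lay above those of H-CM (73.6 to 119 CPM) and of unstimulated EGCs (76.7 to 96.7 CPM), but the log2 fold change of 0.86 over H-CM had an adjusted p of 0.804 (edgeR).

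Slc7a11, the cystine carrier whose import feeds glutathione synthesis, had the highest fold in TME-CM at 12 h after Sod2, over H-CM and over unstimulated EGCs. At 12 h its level was 2.5, 5.7, 2.1 and 3.8 CPM in the unstimulated libraries (replicates 1 to 4), 18.0, 13.7, 13.9 and 13.3 CPM in H-CM and 55.1, 19.6, 36.9 and 36.8 CPM in TME-CM. The 3 groups did not overlap, and the order ran from unstimulated through H-CM to TME-CM. TME-CM exceeded unstimulated EGCs 10.4-fold (log2 fold change 3.38, SE 0.37, adjusted p = 6.9e-06), and H-CM exceeded them 4.10-fold (2.04, SE 0.37, adjusted p = 0.0117, edgeR). The unstimulated libraries held 5, 14, 8 and 28 counts of Slc7a11, so the size of both folds rests on few counts. Between the media the difference was 2.54-fold (1.34, SE 0.32, adjusted p = 0.0328, edgeR). The call between the media did not hold with the replicate block (adjusted p = 0.0619) or in the one model of all 36 libraries. Dropping a single library took it away in 5 of 8 cases. The adjusted p rose most, to 0.187, without TME-CM replicate 1, the highest library (log2 fold change 1.08, edgeR). The call of H-CM over unstimulated EGCs was lost when unstimulated replicate 1, 3 or 4 was left out, with adjusted p of 0.0523, 0.0629 and 0.0503 (edgeR). That call was also lost with only the groups compared and in the one model of all 36 libraries, with an adjusted p of up to 0.99997 (edgeR).
At 24 h the means of Slc7a11 were 8.48 CPM in H-CM and 10.3 CPM in TME-CM, against 14.7 and 37.1 CPM at 12 h. The unstimulated libraries had 5.8, 5.3, 3.7 and 6.3 CPM, those of H-CM 13.2, 9.1, 5.2 and 6.4 CPM and those of TME-CM 7.6, 4.2, 13.2 and 16.3 CPM, so that all groups overlapped. TME-CM over unstimulated EGCs was 1.01 on the log2 scale (SE 0.36, adjusted p = 0.0908, edgeR) and was called without the filter (adjusted p = 0.0271, edgeR). The difference between TME-CM and H-CM was 0.32 on the log2 scale (95% interval -0.42 to 1.05, adjusted p = 0.755, edgeR). The change of that difference from 12 h to 24 h was -1.02 (SE 0.50) and did not pass its own test (unadjusted p = 0.0544, adjusted p = 1, edgeR interaction). At 6 h the counts were too uneven to read, with 0 CPM in 1 TME-CM library and 112 CPM in another.

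The enzyme that joins cysteine to glutamate, the first step of glutathione synthesis, has a catalytic subunit (Gclc) and a modifier subunit (Gclm), and the pair did not follow each other. Gclm at 12 h lay at 39.7 to 67.2 CPM in unstimulated, 67.3 to 126 CPM in H-CM and 92.7 to 119 CPM in TME-CM EGCs. TME-CM was above unstimulated EGCs in every library, 1.98-fold (log2 fold change 0.98, SE 0.22, adjusted p = 0.00765, edgeR), and H-CM was at 1.68-fold with an adjusted p of 0.29. TME-CM and H-CM overlapped (0.24, 95% interval -0.21 to 0.68). At 24 h Gclm was back at means of 50.5, 57.9 and 64.5 CPM in the same order, and no comparison passed.
Gclc stayed between 22.0 and 43.6 CPM in all libraries of 12 h. At 24 h it had 22.2 to 30.5 CPM in TME-CM, below every H-CM library (33.0 to 41.9 CPM), a log2 fold change of -0.55 (SE 0.17) that missed the threshold (adjusted p = 0.0583, edgeR). DESeq2 called it (adjusted p = 0.0329), and so did edgeR without TME-CM replicate 4 (0.0419). Against unstimulated EGCs, Gclc in TME-CM was at -0.49 (SE 0.16, adjusted p = 0.0652, edgeR), and DESeq2 called it (adjusted p = 0.0484). Counts of Gclm are less certain, since 296 of its exon bases are shared with a gene on the other strand and part of these with a gene on its own strand, and whether the counting used strand is not given in the sources used here.

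Txnrd1, the reductase that keeps thioredoxin active, and Srxn1, which repairs overoxidized peroxiredoxins, passed in no comparison. At 24 h Txnrd1 averaged 119 ± 12.9, 134 ± 23.1 and 141 ± 17.1 CPM and Srxn1 90.0 ± 15.6, 100 ± 10.8 and 87.1 ± 11.8 CPM in unstimulated, H-CM and TME-CM EGCs. For Txnrd1 the interval of the TME-CM over H-CM difference at 24 h was -0.23 to 0.35 on the log2 scale. For Srxn1 it was -0.50 to 0.10, so changes of 2-fold lie outside both. At 12 h the highest means of both genes were in H-CM, at 205 ± 42.8 CPM for Txnrd1 and 128 ± 30.6 CPM for Srxn1, with adjusted p of 0.631 and 0.626 against unstimulated EGCs (edgeR).
G6pdx, the first enzyme of the pentose phosphate pathway and a source of the NADPH that glutathione and thioredoxin reductases use, was highest in TME-CM at 12 h. There it had 19.9 to 30.3 CPM, above every H-CM library (10.05 to 18.2 CPM) and every unstimulated library (7.15 to 16.8 CPM). The log2 fold changes of 0.86 over H-CM (SE 0.32, adjusted p = 0.255) and 1.05 over unstimulated EGCs (SE 0.33, adjusted p = 0.0817) did not pass edgeR's test. Over unstimulated EGCs, G6pdx was called by DESeq2 (adjusted p = 0.0365) and by 1 of 8 edgeR fits that left out 1 library (0.0381). At 24 h its TME-CM over H-CM difference was 0.05 (95% interval -0.39 to 0.48). G6pdx shares 418 exon bases with Ikbkg on the other strand and has a near-identical retrogene elsewhere in the genome, so its counts are uncertain.

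Nqo1, the quinone reductase often used to read out NRF2 activity, was the 1 member called lower in TME-CM by the main test. At 24 h it had 17.5, 17.6, 17.8 and 26.8 CPM in TME-CM EGCs, 40.3, 45.1, 51.7 and 33.7 CPM in H-CM and 50.4, 33.5, 28.2 and 32.1 CPM in unstimulated EGCs. All 4 TME-CM libraries lay below all libraries of the other groups. The level was 0.463 of that in H-CM (log2 fold change -1.11, SE 0.20, adjusted p = 0.00114) and 0.558 of that in unstimulated EGCs (-0.84, SE 0.20, adjusted p = 0.00693, edgeR). Both calls held when any 1 library was left out, with log2 fold changes of -1.30 to -1.01 and -1.02 to -0.65. Both were lost in the one model of all 36 libraries, and the cause of this loss was not tested. H-CM and unstimulated EGCs did not differ past the test (0.27, 95% interval -0.13 to 0.67).
At 12 h Nqo1 did not show this pattern. TME-CM libraries were spread from 17.8 to 67.8 CPM, H-CM libraries from 38.2 to 48.6 CPM and unstimulated libraries from 24.9 to 49.2 CPM. The change of the TME-CM over H-CM difference from 12 h to 24 h was -0.89 (SE 0.39, unadjusted p = 0.032), with an adjusted p of 1 (edgeR interaction).

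Hmox1, heme oxygenase 1, which turns heme into biliverdin, iron and carbon monoxide, was higher in both media than in unstimulated EGCs at 12 h, and the media did not differ past the test. At 12 h it had 59.0, 75.0, 66.2 and 67.9 CPM in unstimulated libraries, 249.6, 168.5, 541.7 and 168.5 CPM in H-CM and 222.7, 216.4, 233.7 and 162.7 CPM in TME-CM. Every library of either medium was above every unstimulated library. H-CM exceeded unstimulated EGCs 4.19-fold (log2 fold change 2.07, SE 0.31, adjusted p = 0.0025) and TME-CM 3.10-fold (1.63, SE 0.30, adjusted p = 0.00198, edgeR). The H-CM mean rests partly on replicate 3 at 542 CPM. The TME-CM over H-CM difference was -0.44 (95% interval -1.05 to 0.18) with it and 0.09 without it, and in neither case passed.
At 24 h Hmox1 was at 54.2 to 95.6 CPM in unstimulated, 88.2 to 160 CPM in H-CM and 102 to 150 CPM in TME-CM EGCs. TME-CM was 1.92-fold above unstimulated EGCs (log2 fold change 0.94, SE 0.21, adjusted p = 0.00433, edgeR), and H-CM, at 0.79 (SE 0.21), just missed the threshold (adjusted p = 0.0557) and was called by DESeq2 (adjusted p = 0.0124). The TME-CM call for Hmox1 was lost in the one model of all 36 libraries (adjusted p = 0.559). That one passed and the other did not is no sign of a difference between the media, whose own comparison gave 0.16 (95% interval -0.27 to 0.58).
At 6 h Hmox1 had its highest mean, in TME-CM, and its widest spread. TME-CM libraries had 860.8, 135.6, 726.4 and 673.5 CPM, H-CM libraries 131.3, 168.3, 187.8 and 405.1 CPM and unstimulated libraries 135.1, 88.5, 63.1 and 355.5 CPM. In TME-CM 3 of the 4 libraries stood above all others, and replicate 2 stood among the controls. The share of counts taken by the entry Yam1 also split the libraries of 6 h. It was at most 19.99% in TME-CM replicates 1, 3 and 4, H-CM replicate 4 and unstimulated replicate 4. It was at least 37.76% in all others, TME-CM replicate 2 included. The libraries with the lower share were also those with the highest Hmox1. Whether Hmox1 followed the medium or this split was not tested. The log2 fold change was 1.56 over H-CM (SE 0.55, adjusted p = 0.667) and 1.84 over unstimulated EGCs (SE 0.53, adjusted p = 0.217, edgeR). Without TME-CM replicate 2 the second was 2.19 with an adjusted p of 0.0117, and without unstimulated replicate 4 it was 2.57 with an adjusted p of 0.0113. Each time the library left out was the 1 of its group on the other side of the Yam1 split. These fits therefore cannot separate the medium from that split.

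Sod2 carried the strongest difference of the set and was the 1 member called between the media at both later times. At 24 h its level was 635.7, 596.1, 556.5 and 600.5 CPM in TME-CM EGCs, 162.6, 95.1, 87.2 and 92.1 CPM in H-CM and 83.8, 74.2, 78.8 and 76.6 CPM in unstimulated EGCs. At 12 h it was 845.6, 702.5, 732.0 and 824.0 CPM, 194.5, 91.1, 98.8 and 92.3 CPM, and 78.4, 66.4, 75.4 and 68.3 CPM in the same order. The TME-CM libraries formed a group of their own, several times above the highest library of H-CM, which was replicate 1 at both times. TME-CM exceeded H-CM 5.44-fold at 24 h (log2 fold change 2.44, SE 0.16, adjusted p = 9.1e-09) and 6.54-fold at 12 h (2.71, SE 0.22, adjusted p = 1.3e-06, edgeR). Over unstimulated EGCs the folds were 7.60 at 24 h (2.93, SE 0.17, adjusted p = 7.2e-11) and 10.7 at 12 h (3.42, SE 0.23, adjusted p = 1.8e-08, edgeR).
These values moved little with the libraries used: with each left out in turn, the log2 fold change over H-CM ranged from 2.34 to 2.70 at 24 h, and from 2.60 to 3.05 at 12 h. H-CM alone did not pass against unstimulated EGCs (0.48 at 24 h, adjusted p = 0.155; 0.71 at 12 h, adjusted p = 0.347, edgeR), although its libraries lay above the unstimulated ones at both times. The TME-CM over H-CM difference changed by -0.25 from 12 h to 24 h (SE 0.31, adjusted p = 1, edgeR interaction).
At 6 h Sod2 was already higher in each TME-CM library, at 439.7, 141.4, 179.1 and 336.7 CPM, than in any H-CM (91.9, 89.7, 50.0 and 73.6 CPM) or unstimulated library (63.7, 108.1, 94.6 and 98.2 CPM). The log2 fold change over H-CM was 1.81 (SE 0.44), with an adjusted p of 0.152 (edgeR). It was called by DESeq2 (adjusted p = 0.0458) and by edgeR without TME-CM replicate 2 (log2 fold change 2.03, adjusted p = 0.037). TME-CM replicate 2 had the lowest Sod2 of its group and a high share of Yam1 (37.76%), so that edgeR fit cannot separate the medium from that share. The 73.6 CPM of H-CM replicate 4 were 2 counts. Without the 2 libraries of 6 h under 500000 counts the log2 fold change over H-CM was 1.85 (adjusted p = 0.155). The change from 6 h to 24 h was 0.63 (SE 0.44, adjusted p = 0.744, edgeR interaction).

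**Figure D2:**
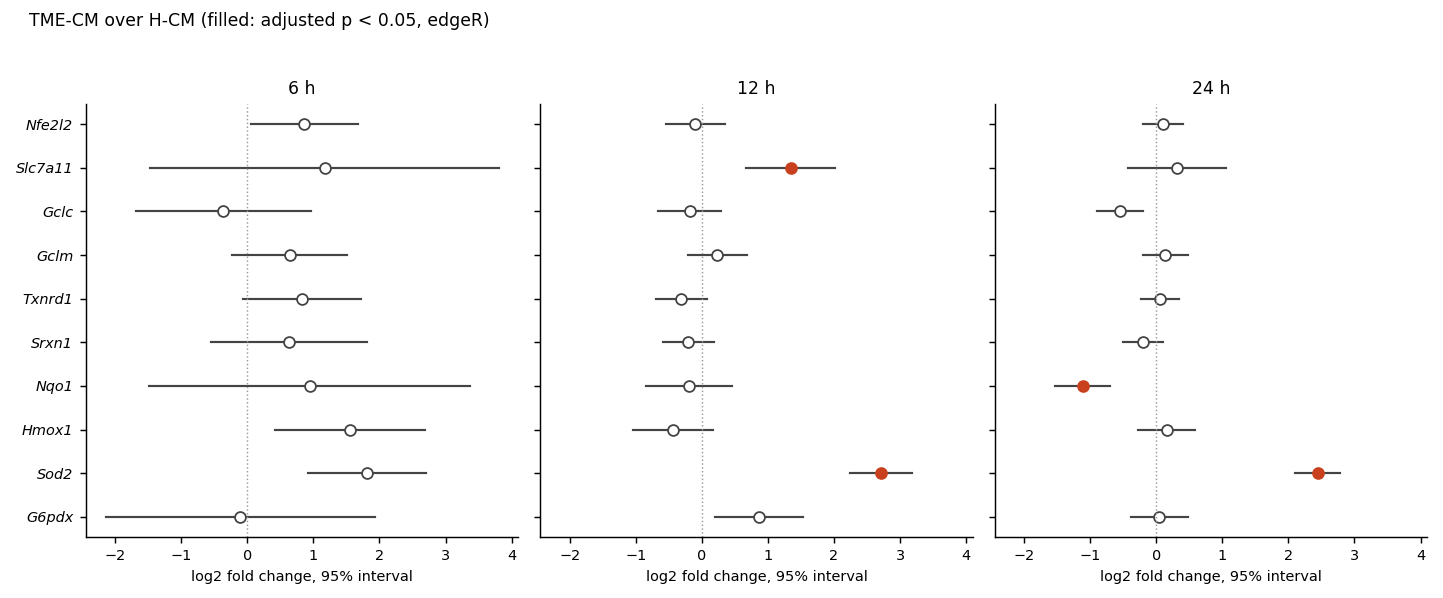
Difference between TME-CM and H-CM EGCs as log2 fold change for the 10 members (points, above 0 where TME-CM was higher) with 95% intervals (lines) in a panel per time point on one shared axis, filled where edgeR's adjusted p was under 0.05. Filled points are Sod2 and Slc7a11 at 12 h and Sod2 and Nqo1 at 24 h, and the intervals of 6 h are the widest.

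Comparisons with unstimulated EGCs asked what either medium did at all. TME-CM against unstimulated EGCs gave 4 of 10 members at 24 h (Sod2, Hmox1 and Nfe2l2 higher, Nqo1 lower), beside 9.52% of the genes tested. At 12 h it gave 4 of 10 (Slc7a11, Sod2, Hmox1 and Gclm), beside 4.41% of genes, all 4 higher where 2.67% of genes were. At 6 h it gave 0 of 10 beside 0.454%, with 3 members at an unadjusted p under 0.05 and 0 called by DESeq2. H-CM against unstimulated EGCs gave 0 of 10 at 24 h beside 2.03%, with 3 members at an unadjusted p under 0.05 and 1, Hmox1, called by DESeq2. At 12 h it gave 2 of 10 (Hmox1 and Slc7a11, both higher) beside 0.403% of genes in either direction and 0.354% higher. At 6 h it gave 0 of 10 beside 0% of genes (58 genes, 0 of them members, at an unadjusted p under 0.05), and DESeq2 called 0. The 3 comparisons of a time point share their libraries, so these counts are not independent of each other.
The median log2 fold change of the members over unstimulated EGCs at 12 h was 0.74 for TME-CM and 0.56 for H-CM, and at 24 h 0.37 and 0.31, with the median of all genes at 0.00 in each. For the 2 changes of the TME-CM over H-CM difference between times, edgeR called 0 of 10 members from 12 h to 24 h, beside 0% of genes, with 358 genes, 2 of them members, at an unadjusted p under 0.05 and 0 called by DESeq2. From 6 h to 24 h it called 0 of 10, beside 0% of genes, with 1021 genes, 2 of them members, at an unadjusted p under 0.05 and 34 genes, 0 of them members, called by DESeq2. Leaving out TME-CM replicate 2 of 6 h moved the second count to 1, Hmox1, with -1.84 against -1.49 on the log2 scale (adjusted p = 0.0115 against 0.419). That library was the 1 of its group with a high share of Yam1 (37.76%), so this fit cannot separate the medium from that share.

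**Figure D3:**
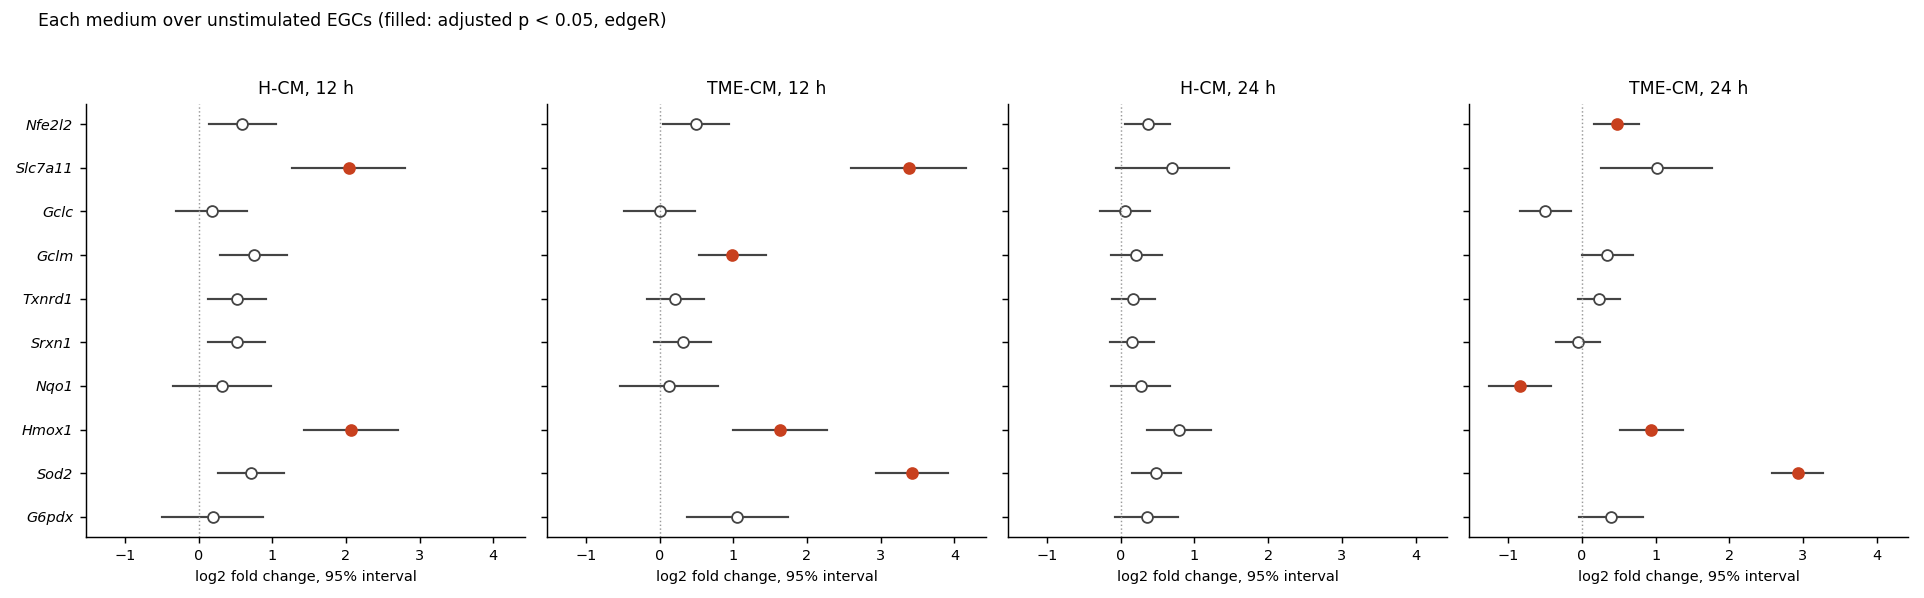
Log2 fold change of H-CM and TME-CM over unstimulated EGCs for the 10 members at 12 h and 24 h (points) with 95% intervals (lines) on one shared axis, filled where edgeR's adjusted p was under 0.05. At 12 h Hmox1 and Slc7a11 are filled in both media, while Sod2 is filled in TME-CM alone.

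Across the 9 groups, the means of Nfe2l2, Hmox1, Gclm, Txnrd1 and Srxn1 were highest in TME-CM at 6 h, those of Slc7a11, Sod2 and G6pdx in TME-CM at 12 h, and those of Nqo1 and Gclc in H-CM at 12 h. When the groups were put in order of their mean, the libraries of neighbouring groups overlapped for all 8 pairs of each member except Sod2. For Sod2, 6 of 8 pairs overlapped, and the exceptions were TME-CM at 12 h (702 to 846 CPM) above TME-CM at 24 h (557 to 636 CPM), and the latter above TME-CM at 6 h (141 to 440 CPM). Two-sided exact permutation tests of neighbours had adjusted p of at least 0.998 over all members. Since 4 against 4 libraries cannot give an unadjusted p below 0.0286, these tests could hardly pass and say nothing about which neighbours differ. The neighbours were set by ranking these same means, and overlap was not counted over all genes, so the overlaps are a description alone.

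The genes whose profile lay closest to a member over the 24 libraries of 12 h and 24 h were ranked by the root mean square difference of centered log2 CPM, as a description. For Sod2 they were Timp1 (0.384), an inhibitor of matrix metalloproteinases, Cx3cl1 (0.456), a chemokine, and Mt2 (0.458), a metal-binding metallothionein. For Slc7a11 they were Nfkbia (0.677), the inhibitor that holds NF-κB in the cytoplasm, Ppap2b (0.703), a lipid phosphatase, and Vcam1 (0.714), an adhesion molecule. For Hmox1 they were Junb (0.432), a subunit of AP-1, Trim25 (0.448), a ubiquitin ligase, and Btg1 (0.478), an antiproliferative gene. For Nfe2l2 they were Por (0.192), the reductase of cytochromes P450, Gap43 (0.204) and Vps4b (0.214). Another member was among the 3 closest for none of these 4 genes. The SD of the member itself over these libraries was 1.442 for Sod2, 1.155 for Slc7a11, 0.822 for Hmox1 and 0.337 for Nfe2l2. A gene that varies little gives small distances, so the distances cannot be compared between members.

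The wider antioxidant system was read in 9 lists of 77 different genes, the members included, sorted by what the proteins do. Between TME-CM and H-CM at 24 h, 73 were tested, 5 were higher and 3 were lower, beside the 5.4% of all genes, and the median log2 fold change was 0.00 as over all genes. At 12 h, 72 were tested, 3 were higher and 1 was lower, beside the 1.89% of all genes, with a median of 0.11 against 0.00. Against unstimulated EGCs, TME-CM gave 8 higher and 4 lower at 24 h (9.52% of all genes) and 9 higher and 1 lower at 12 h (4.41%). H-CM gave 4 higher at 24 h (2.03% of all genes) and 2 higher at 12 h (0.403%), and 0 lower. Without the members, TME-CM over H-CM gave 4 higher and 2 lower of 63 at 24 h and 1 and 1 of 62 at 12 h. Over unstimulated EGCs, TME-CM then gave 5 higher and 3 lower at 24 h and 5 and 1 at 12 h, and H-CM 4 and 0 higher. Calls between TME-CM and H-CM were scattered over the lists: the superoxide dismutases and catalase gave 2 of 4 higher at 24 h, heme breakdown and ferritin 1 higher and 1 lower of 7, and quinone and carbonyl detoxification 2 lower of 10 tested. The regulators of NRF2 gave 0 of 10 at both times, with the sensor Keap1 at 111 ± 11.7 CPM in TME-CM and 102 ± 11.2 CPM in H-CM at 24 h (log2 fold change 0.12, adjusted p = 0.738) and the repressor Bach1 at 27.1 ± 4.44 and 34.0 ± 5.66 CPM (-0.31, adjusted p = 0.407, edgeR). NADPH supply and the 5 tested of 8 NADPH oxidase subunits gave 0 as well.
Among the higher genes was Sod3, the secreted superoxide dismutase, where TME-CM EGCs had 33.1 ± 9.90 CPM, H-CM 11.3 ± 2.57 CPM and unstimulated EGCs 5.07 ± 1.61 CPM at 24 h (log2 fold change over H-CM 1.53, adjusted p = 0.000414). Gstm1, a glutathione transferase, had 171 ± 21.5 against 58.4 ± 12.3 CPM (1.54, adjusted p = 7.0e-07), and Prdx5, a peroxiredoxin, 236 ± 48.7 against 126 ± 8.30 CPM (0.89, adjusted p = 0.000277, edgeR). Of the 7 genes of heme breakdown and ferritin, 1 rose and 1 fell. Fth1, the heavy chain of the iron store ferritin, had 3592 ± 308 CPM in TME-CM and 1603 ± 448 CPM in H-CM at 24 h (1.16, adjusted p = 0.000893) and was also higher at 12 h (1.44, adjusted p = 0.000914, edgeR). Slc40a1, the iron exporter ferroportin, fell by 1.93 at 24 h, from 27.7 ± 4.78 CPM in H-CM to 7.43 ± 2.76 CPM in TME-CM (adjusted p = 4.7e-05), and by 1.51 at 12 h (adjusted p = 0.0222, edgeR). Ephx1, the microsomal epoxide hydrolase, fell with Nqo1 at 24 h, from 58.2 ± 4.95 to 32.3 ± 9.31 CPM (-0.86, adjusted p = 0.00505, edgeR). Fth1 has pseudogene copies and Gstm1 close paralogs, and reads mapping to several places were discarded, so both counts are uncertain.

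**Figure D4:**
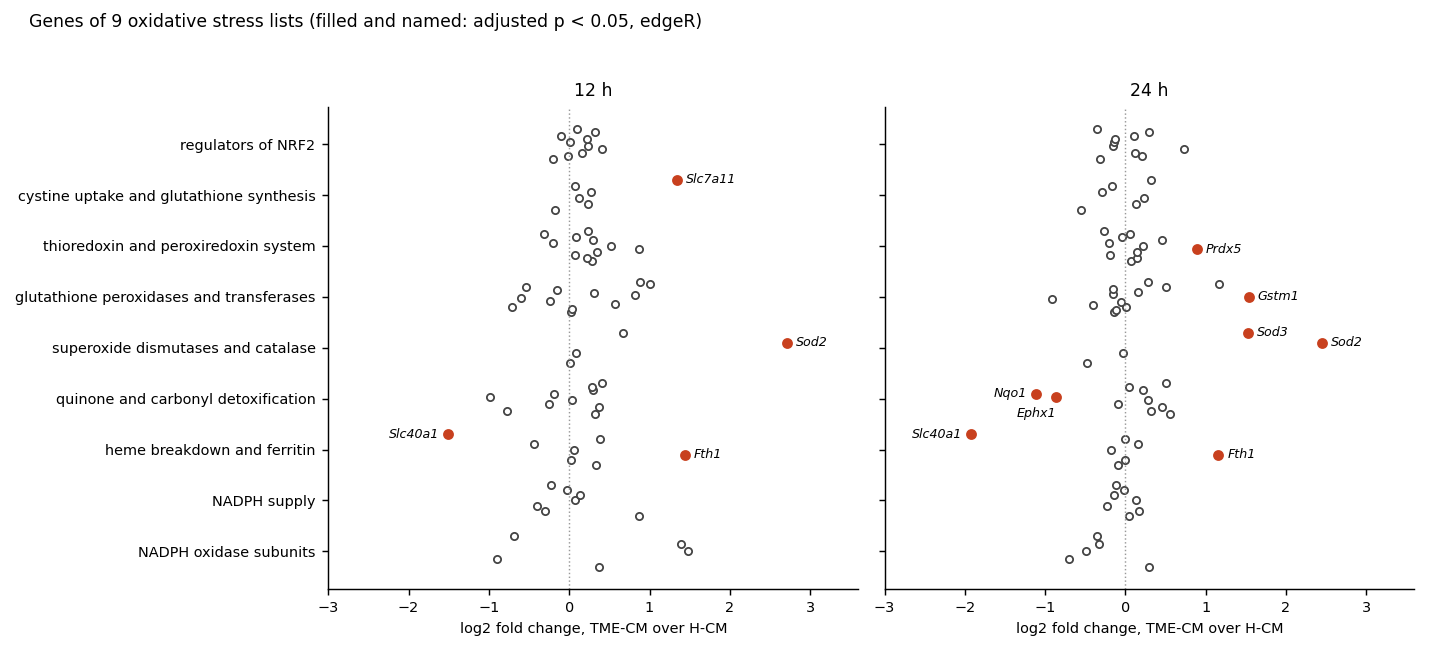
Difference between TME-CM and H-CM EGCs as log2 fold change (above 0 where TME-CM was higher) for each tested gene of the 9 oxidative stress lists at 12 h and 24 h (a gene per point), filled and named where edgeR's adjusted p was under 0.05. Over all lists, 5 filled points lie above 0 and 3 below at 24 h, and 3 above and 1 below at 12 h.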

How the data were processed

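Counts per gene symbol were deposited by the authors without normalization. Reads of a QuantSeq 3′ mRNA kit were cleared of adapters (fastq-mcf) and aligned by HISAT2 (mm10), those mapping to several loci were discarded, and the rest were counted with HT-seq Count, with SAMtools 1.5 in between. FastQC 0.11.7 stands in the submitters' processing notes. Which annotation was used, whether strand was respected and whether molecular identifiers were collapsed are not given in the sources used here, so a count is taken as a read. As 1 tag is read per transcript, counts were not divided by length and levels were not compared between genes. Totals ran from 13518 to 7552509 counts, and libraries of 6 h give the least precision.

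The main tool was edgeR 4.0.16 (R 4.3.3, with limma 3.58.1), and DESeq2 1.42.0 was an alternative. The 12 libraries of a time point entered 1 robust quasi-likelihood model with a mean for each group, TMM-scaled sizes and the filter filterByExpr (minimum count 10). A call is an adjusted p under 0.05 (Benjamini-Hochberg over all genes tested). SE is the log2 fold change divided by the root of its F. Changes between times were tested in models of 16 libraries, levels used TMM over 36 libraries, and logs a prior count of 2. The pipeline was tested on simulated data of TME-CM against H-CM. Log2 fold changes of 2 in either direction were called for 82.5%, 74.5% and 19.5% of changed genes at 24 h, 12 h and 6 h. For log2 fold changes of 1 it was 61.2%, 30% and 0.98%, so genes not called may still differ. Groups came from the labels.

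The members, lists and named genes were chosen with earlier results of these data known. All members are named, of the wider lists the called genes in TME-CM against H-CM, and for 4 members the 3 closest profiles. Gene positions are from GENCODE M21 (GRCm38, also called mm10) and promoters from RefSeq. Alternatives were DESeq2's size factors, no filter, the replicate block, no Yam1 (an entry taking 11.0% to 48.6% of counts), DESeq2's Wald test, only the groups compared, all 36 libraries and each library left out. Leaving out libraries of 6 h under 500000 counts was added after the totals were seen. Single-cell data were not used here. A result of 1 marker gene is not reported here.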

Additional observations from a re-analysis of the deposited data

Results flagged for a closer look

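Of 90 groups of 4 libraries (10 members in 9 groups), 6 held a library far from the other 3 by Dixon's 95% limit, where chance flags about 1 in 20 groups. Values are CPM. Nqo1 was 26.8 in TME-CM replicate 4 of 24 h against 17.5 to 17.8 in the others, still below every library of H-CM and unstimulated EGCs. Hmox1 was 102 in TME-CM replicate 3 of 24 h against 147 to 150. Nfe2l2 was 176 in H-CM replicate 3 of 12 h against 112 to 116, and the same library had the highest Hmox1 of its group. Slc7a11 was 18.0 in H-CM replicate 1 of 12 h against 13.3 to 13.9. Sod2 was 194 in H-CM replicate 1 of 12 h against 91.1 to 98.8, and 163 in H-CM replicate 1 of 24 h against 87.2 to 95.1, so that the TME-CM over H-CM difference of Sod2 grew when either was left out.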

How the results depend on the processing

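No member that was called changed direction under any alternative. The number of members called moved by more than 1.5 times in these settings. In 1 model of all 36 libraries it was 1 for TME-CM over H-CM at 24 h and at 12 h and 3 at 6 h, 1 for TME-CM over unstimulated EGCs at 24 h and 4 at 6 h, and 1 for H-CM over unstimulated EGCs at 12 h. With the replicate block it was 1 for TME-CM over H-CM at 12 h and 1 for H-CM over unstimulated EGCs at 24 h. DESeq2's Wald test gave 1 for TME-CM over H-CM at 6 h and 1 for H-CM over unstimulated EGCs at 24 h. Without the filter it was 1 for TME-CM over unstimulated EGCs at 6 h, 2 for H-CM at 24 h and 1 for the change from 6 h to 24 h. With only the groups compared it was 1 for H-CM at 12 h. With 1 library left out it ran from 1 to 2 at 12 h for TME-CM over H-CM and for H-CM over unstimulated EGCs, from 0 to 2 for TME-CM over unstimulated EGCs at 6 h, and from 0 to 1 for TME-CM over H-CM at 6 h, H-CM at 24 h and the change from 6 h to 24 h. Smaller moves were 3 for TME-CM over H-CM at 24 h (DESeq2, and without TME-CM replicate 4), 3 (block, only the groups compared) and 5 (DESeq2, no filter) for TME-CM over unstimulated EGCs at 24 h, and 5 at 12 h (DESeq2). The cause was not tested.

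No log2 fold change that changed sign was past the threshold. With 1 library left out, TME-CM over H-CM at 24 h ran from -0.0017 to 0.23 for Nfe2l2, from -0.018 to 0.13 for Txnrd1 and from -0.057 to 0.15 for G6pdx, and at 12 h from -0.23 to 0.080 for Nfe2l2, from -0.63 to 0.048 for Nqo1 and from -0.62 to 0.093 for Hmox1. TME-CM over unstimulated EGCs ran from -0.15 to 0.044 for Srxn1 at 24 h, and at 12 h from -0.31 to 0.37 for Nqo1 and from -0.13 to 0.16 for Gclc, which was 0.0055 without the filter and 0.0019 in all 36 libraries. H-CM over unstimulated EGCs ran from -0.023 to 0.13 for Gclc at 24 h and from -0.034 to 1.001 for Hmox1 at 6 h, which was -0.27 without libraries under 500000 counts. The change of Sod2 from 12 h to 24 h ran from -0.59 to 0.0019. At 6 h, where few fold changes are given above, TME-CM over H-CM ran from -0.66 to 1.57 for Slc7a11 and from -0.24 to 1.56 for Nqo1, and the change of Slc7a11 from 6 h to 24 h ran from -1.27 to 1.07.

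Within a time point, the deviations of same-numbered libraries from their group means had correlations of -0.16 to 0.22, and no comparison had all 4 pairs above 0.1. These values cannot show whether libraries share a culture or batch, and libraries of different times were not compared. The block took away the calls of Slc7a11 (TME-CM over H-CM, 12 h, 1.31, adjusted p = 0.0619) and Nfe2l2 (TME-CM over unstimulated, 24 h, 0.46, adjusted p = 0.0871), added Hmox1 (H-CM over unstimulated, 24 h, 0.76, adjusted p = 0.03), and changed no other call of a member.

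Counts over all genes that moved by over 1.5 times are those below. For TME-CM over H-CM, all 36 libraries gave 71 (686 in the fit per time), 81 (230) and 899 (9) at 24 h, 12 h and 6 h. At 12 h no filter gave 465 and DESeq2 383. At 6 h DESeq2's size factors gave 2, the block 4, only the groups compared 19, DESeq2 23 and no filter 41. For TME-CM over unstimulated EGCs, all 36 libraries gave 265 (1210), 288 (536) and 1113 (42), and at 6 h size factors, block and only the groups compared 23 each, DESeq2 72 and no filter 105. For H-CM over unstimulated EGCs at 24 h, all 36 libraries gave 34 (258), DESeq2 410 and no filter 446, at 12 h only the groups compared 28 (49), DESeq2 98 and no filter 168, and at 6 h no filter 1 (0). For the change from 6 h to 24 h, the block gave 1 (0), all 36 libraries 16, DESeq2 34 and no filter 88. With 1 library left out, the lowest and highest were 417 and 776, 137 and 297, 2 and 25 for TME-CM over H-CM, 19 and 105 for TME-CM over unstimulated EGCs at 6 h, 161 and 250 for H-CM at 24 h, 23 and 57 at 12 h, and 0 and 479 for the change from 6 h to 24 h, the last without TME-CM replicate 2 of 6 h.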
